A study of Mus musculus with 59 samples.

Results

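The comparison described here is between DN2 cells, an early stage of T cell development, that carried 1 of 2 forms of the transcription factor TCF-1. L1d DN2 (4 libraries) was set against P45 DN2 (6 libraries), which are 10 of the 59 samples of the series, chosen by their construct and sort labels and not by any measured value. All of these cells came from mouse bone marrow LSK progenitors (lineage-negative, Sca-1+ and c-Kit+) of the Tcf7eGFP fl/fl Cre+ strain, and the titles label the cells of both groups as TCF-1 knockout (TCF1KO), each group carrying its own construct. All were grown on OP9-DLL1 stroma and sorted after 7 days. P45 is taken here as the long, wild-type form of TCF-1, L1d as the same form lacking a segment named L1, and L7d, a second deletion, as the form lacking a segment named L7. The labels name neither the promoter that drives Cre nor the residues of the segments, and they give no age for the animals. Per the labels' protocols DN2 cells were gated as CD25 high, with c-Kit and CD44 both low, among CD45+ cells, while the labels' source name calls the cells CD44+ CD25+.

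TCF-1, the product of Tcf7, is switched on by Notch signalling in progenitors that enter the thymus, and it binds DNA through an HMG box. It helps to start the T cell programme, in which Gata3 and then Bcl11b are induced, and Bcl11b shuts off alternative fates as cells pass from DN2a to DN2b. Before that step DN2 cells can still become dendritic, mast, natural killer, innate lymphoid or myeloid cells. OP9-DLL1 cells are a bone marrow stromal line that presents the Notch ligand DLL1, which lets progenitors enter the T lineage in a dish.

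RNA-seq read counts were used per gene and on the reverse strand, and libraries with the same B number were summed into 2 replicates per group. Gene counts summed to between 5.32 and 9.98 M in the 10 libraries and to between 14.34 and 21.95 M in the 4 summed replicates. Levels are CPM, counts scaled to library size with TMM factors, so values for 1 gene can be compared between samples but not between genes of different length. The 15010 genes that passed a filter on low counts were tested with edgeR's quasi-likelihood test over all 16 primary replicates in 8 groups. A gene was called, and is said to have risen or fallen, at an adjusted p (Benjamini-Hochberg) under 0.05, and every adjusted p below comes from that test. The labels do not tell whether replicates are separate animals or cultures. The p-values therefore reflect the spread of these samples alone, which may be technical. In these bulk samples fewer cells of a type and less RNA per cell cannot be told apart.

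L1d replicate 2 held the most collagen RNA of the DN2 replicates. The summed level of 9 collagen genes of the OP9 stroma list was 52.6 and 146 CPM in P45 replicates 1 and 2, and 49.9 and 355 CPM in L1d replicates 1 and 2. Both libraries of L1d replicate 2 held this level, at 358 and 352 CPM. Replicate 2 was also the higher 1 with L7d in DN2 (37.6 and 61.7 CPM). In DN1 the same order held with P45 (156 and 218 CPM) and with L1d (234 and 455 CPM). Of 32 tested stroma genes (37 listed) 31 were higher in L1d replicate 2 than in L1d replicate 1, against 51.6% of all genes tested, and in P45 all 32 were higher in replicate 2. Of the list 3 genes of the list rose, Thbs1 (thrombospondin 1), Vcam1 (an adhesion molecule) and Col4a2 (a basement membrane collagen), and without L1d replicate 1, L1d replicate 2, P45 replicate 1 or P45 replicate 2 the count was 14, 1, 0 and 4. The 3 rises were 9.38% of the tested stroma genes, near the 8.05% of all genes that rose. Col1a1 itself, the main fibrillar collagen, was not called (19.7 and 51.7 CPM against 14.4 and 114 CPM). Results that move with this replicate are given with and without it.

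Between L1d and P45 DN2 cells 1630 genes were called, 10.9% of those tested. Of these 1209 were higher in L1d (8.05%) and 421 lower (2.8%), and 535 rose and 129 fell by at least 2-fold. T lineage genes were among the largest falls, and genes of mature dendritic cells, mast cells and granulocytes were among the rises. The median log2 fold change over all genes was 0.00. The count depended on the replicates: it was 558 without L1d replicate 2, 527 without P45 replicate 1, 805 without P45 replicate 2 and 1958 without L1d replicate 1, in fits where the remaining replicate of the arm is assumed to vary like the other groups. With the spread taken from the 4 compared replicates alone it was 750.

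The constructs' own gene was read first. Tcf7 stood at 723 and 715 CPM in the P45 replicates, at 881 and 810 CPM in the L1d replicates and at 1109 and 1043 CPM in the L7d replicates. L1d lay above P45 in both replicates, by 0.23 on the log2 scale (SE 0.09), which was not called (adjusted p = 0.141). Between the 2 deletions Tcf7 was called, with a log2 change of -0.35 for L1d against L7d (adjusted p = 0.0431). Counts cover the whole gene, so they do not show which segment a construct lacks. Of 14 tested genes of the list of TCF and LEF factors, cofactors and Wnt targets (18 listed), 1 rose and 2 fell, with a median log2 change of -0.10. Over all genes 8.05% rose and 2.8% fell. Tcf7l2 (the TCF-4 paralog) rose 1.54-fold, while Tle3, a Groucho-type corepressor that binds TCF proteins, fell 1.16-fold and Znrf3, a Wnt-induced ubiquitin ligase, fell 1.36-fold. None of these calls held without L1d replicate 2 or without P45 replicate 1. Lef1, the closest TCF-1 relative, was at 8.26 and 6.62 CPM with P45 and 2.74 and 0 CPM with L1d and was not called (adjusted p = 0.0605). Axin2, a common Wnt target, was not called at 7.48 and 7.97 CPM against 6.33 and 5.84 CPM.

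Bcl11b and Gata3 fell among the regulators of T cell commitment, of which most were not called. Bcl11b, the factor that closes T commitment, was at 22 and 15.8 CPM in the P45 replicates and at 1.83 and 0.185 CPM in the L1d replicates. The 6 P45 libraries ran from 15.7 to 24.1 CPM and the 4 L1d libraries from 0 to 2.01 CPM. Libraries are repeats of 2 replicates per group, so their number adds no replication. Replicates of the 2 groups did not overlap in 50.3% of all genes tested. The fall was 19-fold (log2 SE 0.79, adjusted p = 0.00439), and DESeq2 did not call it (adjusted p = 0.136). Gata3, which TCF-1 helps to induce, was at 48.8 and 39.1 CPM against 14.5 and 15.5 CPM, a 2.93-fold fall (SE 0.30, adjusted p = 0.00397). Of the 20 tested commitment factors (21 listed) 6 fell and 2 rose, where 2.8% of all genes fell and 8.05% rose. The median log2 change of the list was -0.21. The others that fell were Tox (2.11-fold), Satb1, a chromatin organiser (1.44-fold), and the E proteins Tcf12 and Tcf3 (1.24-fold and 1.19-fold). Egr1, an immediate early factor, was 1 of the 2 that rose (1.41-fold). Without L1d replicate 1, L1d replicate 2, P45 replicate 1 or P45 replicate 2 the list gave 8, 4, 2 and 3 calls, and of the named genes Bcl11b and Gata3 were called in each of these fits. Tox, Satb1, Tcf12, Tcf3 and Egr1 each lost the call in at least 2 of them.

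Of the CD3 and receptor signalling genes 10 of 18 tested fell with L1d and the other 8 were not called. Cd3g, a CD3 chain, was at 13 and 3.71 CPM with P45 (299 and 88 reads) and had no read in any L1d library. Against a floor of 3 counts over the L1d group (0.095 CPM) it was at least 88-fold lower (adjusted p = 0.00806). The P45 replicates themselves lay far apart, and without P45 replicate 1, or with DESeq2 (adjusted p = 0.231), the gene was not called. Cd3d, another CD3 chain, was at 0.913 and 0.211 CPM against 0 and 0, at least 5.92-fold lower, and Cd3e had 22 and 8 reads against 0 and 0 and was too low to be tested. Lck, the kinase that starts receptor signalling, was at 70.0 and 68.3 CPM with P45 and 20.3 and 18.5 CPM with L1d, a 3.56-fold fall (SE 0.30, adjusted p = 0.00122). Cd247, the CD3 zeta chain, fell 13.5-fold from 4.87 and 3.84 CPM to 0.391 and 0.246 CPM. Of 18 tested members (20 listed) 10 fell and none rose, where 2.8% of all genes fell, and the list median was -1.37. Txk, a kinase of the Tec family, fell 3.03-fold, the adaptors Skap1 and Sla2 4.73-fold and 2.28-fold, Trat1 8.01-fold and Sh2d2a 9.01-fold. Lcp2, the SLP-76 adaptor that myeloid and mast cells also use, was not called at 178 and 175 CPM against 148 and 158 CPM. The count of falls was 9, 3, 3 and 7 without L1d replicate 1, L1d replicate 2, P45 replicate 1 and P45 replicate 2, and Lck and Cd247 were called in each. The other genes named here that fell each lost the call without P45 replicate 1.

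Most tested transcripts of the receptor loci and of the recombination machinery fell as well. Rag1, a subunit of the V(D)J recombinase, was at 3.22 and 2.23 CPM with P45 and 0.13 and 0 CPM with L1d, a 39.2-fold fall (SE 0.95, adjusted p = 0.00539). Rag2, its partner, was not called at 2.13 and 1.39 CPM against 0.13 and 0.738 CPM. Dntt, which adds bases at junctions, fell 11.1-fold from 9.48 and 4.85 CPM. Reads over the gamma constant genes were Tcrg-C1 91.3 and 61.1 CPM against 21.8 and 9.23 CPM, and Tcrg-C2 44.1 and 28.9 CPM against 4.76 and 1.35 CPM. These constant genes are near copies of each other, as are Trbc1 and Trbc2, so how reads were split between copies is uncertain, while all of them were lower. Trdc, the delta constant gene, fell 9.79-fold from 15.5 and 12.7 CPM to 2.48 and 0.431 CPM, and DESeq2 did not call it (adjusted p = 0.464). Of 12 tested genes (14 listed) 9 fell and none rose, where 2.8% of all genes fell, and the list median was -2.14. The count of falls was 6, 6, 4 and 6 without L1d replicate 1, L1d replicate 2, P45 replicate 1 and P45 replicate 2. Rag1, Trdc, Tcrg-C1 and Tcrg-C2 were called in each, Dntt in neither the fit without L1d replicate 2 nor that without P45 replicate 1, and Trbc1 and Trbc2 in none.

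Surface genes showed a fall in some of the genes of the gate and not in others. Il2ra encodes CD25, for which the cells were sorted as high, and it was still lower with L1d, at 1278 and 1183 CPM with P45 against 448 and 373 CPM with L1d. The fall was 3-fold (SE 0.21, adjusted p = 0.000232). Kit, also in the gate, was not called at 261 and 284 CPM against 287 and 304 CPM, and neither was Ptprc (CD45) at 501 and 462 CPM against 441 and 422 CPM. Cd44 was 1.21-fold higher at 200 and 208 CPM against 168 and 169 CPM, a call lost in each fit without L1d replicate 2, P45 replicate 1 or P45 replicate 2. Thy1, a pan-T cell surface protein, was at 30.1 and 18.7 CPM against 2.09 and 0.861 CPM, a 16.6-fold fall (SE 0.53, adjusted p = 0.000232). Of 14 tested T cell surface genes (18 listed) 5 fell and none rose, where 2.8% of all genes fell, and the median was -0.54. Cd5 and Cd28, a negative and a positive modulator of receptor signals, fell 2.97-fold and 2.02-fold, Cd160 fell 2.44-fold and Cd24a 1.44-fold. Cd27 (39.8 and 40.5 CPM against 33.1 and 26.9 CPM) and Cd7 (30.9 and 31.7 CPM against 25.2 and 24.4 CPM) were not called. The list gave 5, 2, 2 and 4 calls without L1d replicate 1, L1d replicate 2, P45 replicate 1 and P45 replicate 2, and Thy1, Cd160 and Il2ra were called in each, Cd24a in none, Cd5 not without L1d replicate 2 or P45 replicate 1, and Cd28 only without P45 replicate 2. Il2rb, the IL-2 receptor beta chain, fell 11.1-fold from 8.13 and 4 CPM to 0.978 and 0.123 CPM, and was not called without L1d replicate 2 or P45 replicate 1. Il7r was not called at 10.1 and 8.30 CPM against 7.24 and 7.93 CPM.

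Among Notch genes the receptor was lower. Notch1 was at 192 and 194 CPM with P45 and 104 and 112 CPM with L1d. The repeat libraries of these replicates ran from 178 to 206 CPM with P45 and from 103 to 113 CPM with L1d. The fall was 1.79-fold (SE 0.12, adjusted p = 0.00061), and it was called in every fit with a replicate left out. Of 17 tested Notch receptors and targets (21 listed) 3 fell and none rose, namely Notch1 and the T lineage targets Il2ra and Gata3 already given. Over all genes 2.8% fell. The direct targets Hes1 (13.2 and 10.5 CPM against 7.11 and 10.4 CPM) and Dtx1 (22.7 and 28.2 CPM against 16 and 17.2 CPM) were not called, nor was Notch3 (7.70 and 11.4 CPM against 3.98 and 6.27 CPM).

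**Figure D1:**
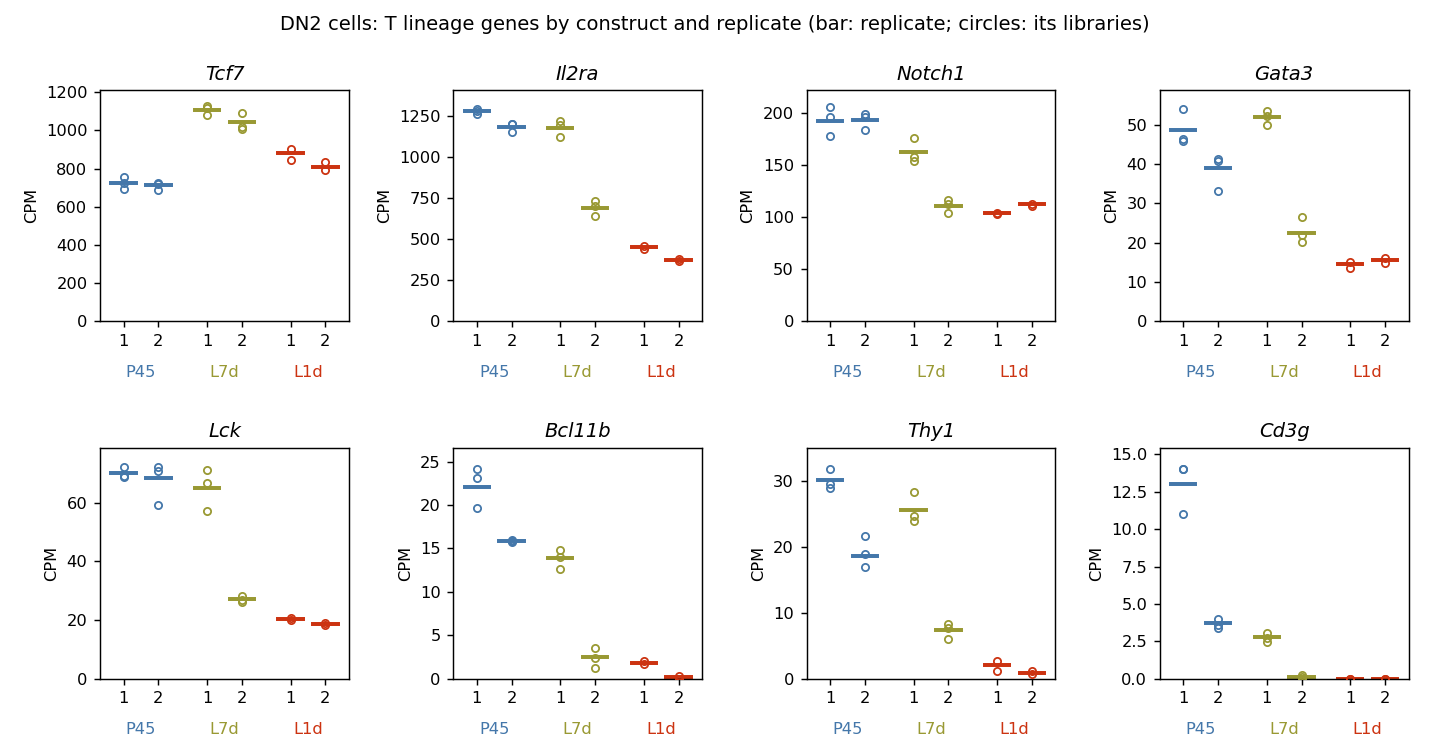
CPM of Tcf7 and 7 T lineage genes in DN2 cells, with linear axes from 0, by construct and replicate number; bars are summed replicates and circles their libraries. L1d lies below P45 for all genes but Tcf7, while L7d replicate 1 lies near P45 for several genes and L7d replicate 2 nearer to L1d.

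Promoter sequence is shown for 4 genes at the ends of the response, Bcl11b and Cd3g, which fell, and Fscn1 and Ccl22, which rose and are described below. Each window runs from 250 bases before to 50 bases after the RefSeq start (GRCm38.p6), and of 6 genes looked for, Thy1 and Ccr7 had no entry. A form of the core of the sequence that TCF proteins bind, CTTTGA, was searched on both strands and is in capitals. Other forms were not searched. The windows are chr12:108003365-108003664 on the minus strand for Bcl11b, chr9:44980382-44980681 on the minus strand for Cd3g, chr5:142960105-142960404 on the plus strand for Fscn1 and chr8:94745434-94745733 on the plus strand for Ccl22.
Bcl11b: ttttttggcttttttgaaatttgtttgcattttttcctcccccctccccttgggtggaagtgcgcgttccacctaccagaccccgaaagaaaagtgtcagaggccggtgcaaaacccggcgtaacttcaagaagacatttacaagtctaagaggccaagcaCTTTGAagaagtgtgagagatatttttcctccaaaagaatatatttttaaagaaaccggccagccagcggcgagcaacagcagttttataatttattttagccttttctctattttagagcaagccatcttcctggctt
Cd3g: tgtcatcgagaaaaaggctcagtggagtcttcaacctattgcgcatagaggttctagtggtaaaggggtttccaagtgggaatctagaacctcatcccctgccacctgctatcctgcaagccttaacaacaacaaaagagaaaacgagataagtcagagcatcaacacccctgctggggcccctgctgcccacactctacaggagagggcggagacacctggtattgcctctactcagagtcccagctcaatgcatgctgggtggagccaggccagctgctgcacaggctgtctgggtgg
Fscn1: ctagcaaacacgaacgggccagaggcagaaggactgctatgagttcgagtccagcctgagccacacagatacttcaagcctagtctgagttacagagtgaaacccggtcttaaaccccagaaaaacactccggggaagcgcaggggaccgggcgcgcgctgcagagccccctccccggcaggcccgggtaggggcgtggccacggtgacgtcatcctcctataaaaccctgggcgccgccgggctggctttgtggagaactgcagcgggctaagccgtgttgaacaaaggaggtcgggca
Ccl22: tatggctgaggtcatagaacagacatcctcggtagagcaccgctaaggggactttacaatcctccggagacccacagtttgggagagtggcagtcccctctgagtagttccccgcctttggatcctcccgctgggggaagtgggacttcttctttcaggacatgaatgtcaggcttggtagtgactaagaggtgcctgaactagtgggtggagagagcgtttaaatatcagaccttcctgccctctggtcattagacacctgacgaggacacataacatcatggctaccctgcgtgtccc
Bcl11b held 1 match to CTTTGA, whose first base lies at -89 from the start, and the other 3 windows held none. The letters ctttgt, a related form that was not searched, occur in the Fscn1 window. The form searched is common, at 16% of all 32851 windows. It was in 14.4% of the 10256 tested genes with a window, in 16.7% of the 270 genes that fell and in 14% of the 956 that rose.

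Genes of mature, migrating dendritic cells rose with L1d. Ccr7, the chemokine receptor that guides these cells to lymph nodes, was at 20.8 and 22.1 CPM with P45 and at 98.9 and 98.7 CPM with L1d. The 6 P45 libraries lay between 19.1 and 22.8 CPM and the 4 L1d libraries between 95.5 and 101 CPM, as repeats of these replicates. The rise was 4.60-fold (SE 0.12, adjusted p = 7.3e-08). Fscn1, which encodes the actin bundler fascin, rose 6.20-fold from 27 and 32.5 CPM to 184 and 186 CPM (SE 0.19, adjusted p = 9.47e-07). Ccl22, a chemokine of mature dendritic cells, rose 6.38-fold from 6.13 and 7.59 CPM to 43.4 and 44.3 CPM (SE 0.17, adjusted p = 3.8e-07). Cd83, a maturation marker, rose 5.75-fold, the costimulator Cd86 3.34-fold, and Zbtb46, a factor of classical dendritic cells, 6.86-fold from 1.13 and 1.35 CPM to 8.48 and 8.61 CPM. Of 15 tested members of the dendritic list (20 listed) 10 rose and none fell, where 8.05% of all genes rose, and the list median was 0.98. Itgax, which encodes CD11c, was not called, with averages of 47.0 CPM with P45 and 49.2 CPM with L1d. Flt3, Batf3, Tcf4 and Bst2 were not called either. The rises also held Irf4 (4.28-fold), Irf8 (1.36-fold), Cst3, a protease inhibitor abundant in these cells (1.79-fold), and Id2 (1.75-fold). The count was 10, 10, 10 and 9 without L1d replicate 1, L1d replicate 2, P45 replicate 1 and P45 replicate 2, with Irf8 lost in the last. The summed level of the list was 510 and 501 CPM with P45 and 961 and 1006 CPM with L1d.

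Genes that act with this state, named after their values were seen or by their rank, followed the same direction. Il12b, the IL-12 p40 chain, rose 8.56-fold from 1.57 and 2.19 CPM to 16.2 and 16.1 CPM. Nr4a3, a nuclear receptor needed for dendritic cell migration, rose 5.59-fold from 16.2 and 17.7 CPM to 90.9 and 98.9 CPM. Traf1, an adaptor induced by NF-kappaB, rose 5.71-fold, and the NF-kappaB pathway genes Relb, Map3k14 and Nfkb2 rose 2.79-fold, 2.18-fold and 1.58-fold. Cd80, a costimulator, rose 3.23-fold, Cd274, which encodes PD-L1, 2.29-fold, Cxcl16, a chemokine, 5.94-fold and Spib, an Ets factor, 6.61-fold. Each of these 10 genes was called in every fit with a replicate left out. Of 10 MHC class II genes 4 rose and none fell, where 8.05% of all genes rose, and the median was 0.63. H2-Eb1 and H2-Aa, chains of the class II molecules, rose 2.84-fold and 2.63-fold, H2-Ab1 1.79-fold, and Cd74, the invariant chain, 2.39-fold from 68.2 and 70.9 CPM to 158 and 174 CPM. Ciita, the class II transactivator, was not called at 5.09 and 5.99 CPM against 6.85 and 7.32 CPM. The class II count was 4, 3, 2 and 3 without L1d replicate 1, L1d replicate 2, P45 replicate 1 and P45 replicate 2, and H2-Eb1 and Cd74 were called in each.

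Mast cell and basophil genes rose with L1d. Mcpt2, a mast cell protease, was at 2.78 and 5.94 CPM with P45 and 60.3 and 71.5 CPM with L1d, a 15-fold rise (SE 0.70, adjusted p = 0.00233). Both L1d replicates lay far above both P45 replicates, and P45 replicate 2 lay above P45 replicate 1. Mcpt8, a basophil protease, rose 3.77-fold, and Mcpt1 and Cma1 rose 7.14-fold and 4.41-fold, with the caution that mast cell proteases are close paralogs. Ms4a2 and Fcer1a, the beta and alpha chains of the IgE receptor, rose 7.10-fold and 5.99-fold but stayed low, Ms4a2 at 9.65 and 6.83 CPM and Fcer1a at 2.93 and 2.77 CPM with L1d. Il1rl1, the IL-33 receptor of mast cells and type 2 lymphoid cells, rose 3.30-fold from 6.61 and 8.30 CPM to 24.6 and 24.6 CPM. The factors Gata2, Gata1 and Mitf rose 2.18-fold, 2.80-fold and 1.95-fold, Hdc, the histamine-forming enzyme, 2.32-fold, Alox5, the leukotriene-forming lipoxygenase, 2.48-fold and Cd200r3 3.53-fold. Of 30 tested members (33 listed) 21 rose and none fell, where 8.05% of all genes rose, and the median was 1.29. The summed level was 676 and 792 CPM with P45 and 1399 and 1509 CPM with L1d. Cpa3, a mast cell protease also found in progenitors, was not called at 110 and 117 CPM against 137 and 129 CPM, and Mcpt4 was not called at 5.09 and 8.09 CPM against 45.4 and 24.5 CPM. The count was 20, 13, 11 and 16 without L1d replicate 1, L1d replicate 2, P45 replicate 1 and P45 replicate 2, and Mcpt2, Mcpt8, Ms4a2, Fcer1a, Il1rl1, Hdc and Alox5 were called in each.

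Granulocyte genes rose with L1d. Early ones were mostly higher in L1d replicate 1 (replicate 2 lay above it in 3 of 12) and late ones in L1d replicate 2. The P45 replicates showed this order too, with replicate 2 above replicate 1 in 2 of 12 early and 18 of 22 late genes. Mpo, the myeloperoxidase of primary granules, was at 1255 and 1318 CPM with P45 and 3806 and 2787 CPM with L1d, a 2.56-fold rise (SE 0.22, adjusted p = 0.00114). Of 12 tested members of the primary granule list (13 listed) 6 rose and 1 fell, with a median of 0.36. Over all genes 8.05% rose and 2.8% fell. Elane and Ctsg, granule proteases, rose 1.95-fold and 1.63-fold, and Prtn3 was not called at 164 and 151 CPM against 272 and 195 CPM. The 1 fall was Igfbp4 (1.47-fold), a member of the list whose product is not a granule protein. The calls in either direction numbered 4, 7, 3 and 2 without L1d replicate 1, L1d replicate 2, P45 replicate 1 and P45 replicate 2, and Mpo was called in each. Ngp, a granule protein of later neutrophils, was at 23.7 and 35.7 CPM with P45 and 123 and 314 CPM with L1d, a 7.37-fold rise (SE 0.47, adjusted p = 0.00116). Of 22 late neutrophil granule and S100 genes 16 rose and none fell, where 8.05% of all genes rose, and the median was 2.08. Ltf (lactoferrin) rose 6.98-fold, Camp 5.49-fold, S100a9 4.65-fold, S100a8 4-fold, Lcn2 3.84-fold and Mmp8 2.26-fold. In 21 of the 22 genes L1d replicate 2 lay above L1d replicate 1, with a median difference of 1.00 on the log2 scale of CPM + 0.5, against 0.27 between the P45 replicates. The count was 19, 8, 9 and 13 without L1d replicate 1, L1d replicate 2, P45 replicate 1 and P45 replicate 2, and Ngp, Ltf, Lcn2 and S100a9 were called in each.

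Some genes known from macrophages were highest in L1d replicate 2, as were the late neutrophil genes and the collagens. They come from no list of macrophage genes, and Slc40a1, Cd5l and the C1q genes were named after their values were seen. Slc40a1, the iron exporter ferroportin, was at 11.6 and 8.05 CPM with P45 and 32.4 and 113 CPM with L1d, a 7.44-fold rise (SE 0.52, adjusted p = 0.00252). The complement genes C1qa, C1qb and C1qc rose 5.39-fold, 6.08-fold and 7.07-fold, Cd5l 6.81-fold, and the mannose receptor Mrc1 5-fold from 7.74 and 6.28 CPM to 17 and 53 CPM. Slc40a1 was called without L1d replicate 2 and the other 5 were not. Adgre1, the F4/80 antigen, was not called at 27.1 and 24.3 CPM against 28.8 and 65.8 CPM. Of 26 tested myeloid surface receptors (28 listed) 14 rose and none fell, with a median of 0.62. Of 16 myeloid transcription factors 8 rose and none fell, with a median of 0.33. Over all genes 8.05% rose. Itgam (CD11b) rose 2.42-fold, Csf1r 1.80-fold and Csf3r 2.09-fold, and Cebpa and Cebpe, factors of granulocyte development, 1.94-fold and 2.53-fold. Without L1d replicate 1, L1d replicate 2, P45 replicate 1 or P45 replicate 2 the receptors gave 17, 5, 6 and 5 calls and the factors 9, 5, 4 and 4, with Itgam, Csf3r and Cebpe called in each. Collagens were at 355 CPM in the replicate that held these levels, and their part in them was not tested.

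**Figure D2:**
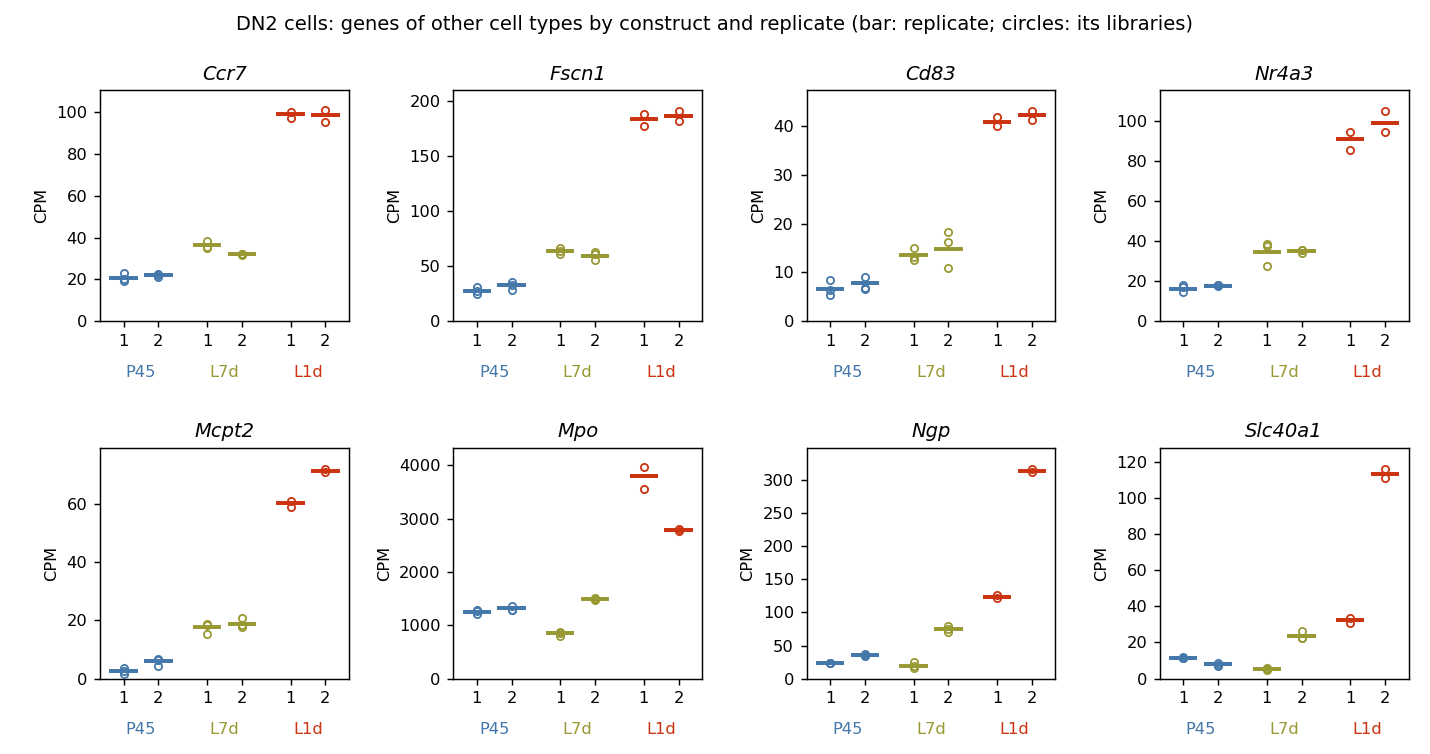
CPM of genes of dendritic cells (Ccr7, Fscn1, Cd83, Nr4a3), mast cells (Mcpt2), granulocytes (Mpo, Ngp) and macrophages (Slc40a1) in DN2 cells, with linear axes from 0; bars are summed replicates and circles their libraries. The L1d replicates nearly coincide for the dendritic genes and are well apart for Ngp and Slc40a1.

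**Figure D3:**
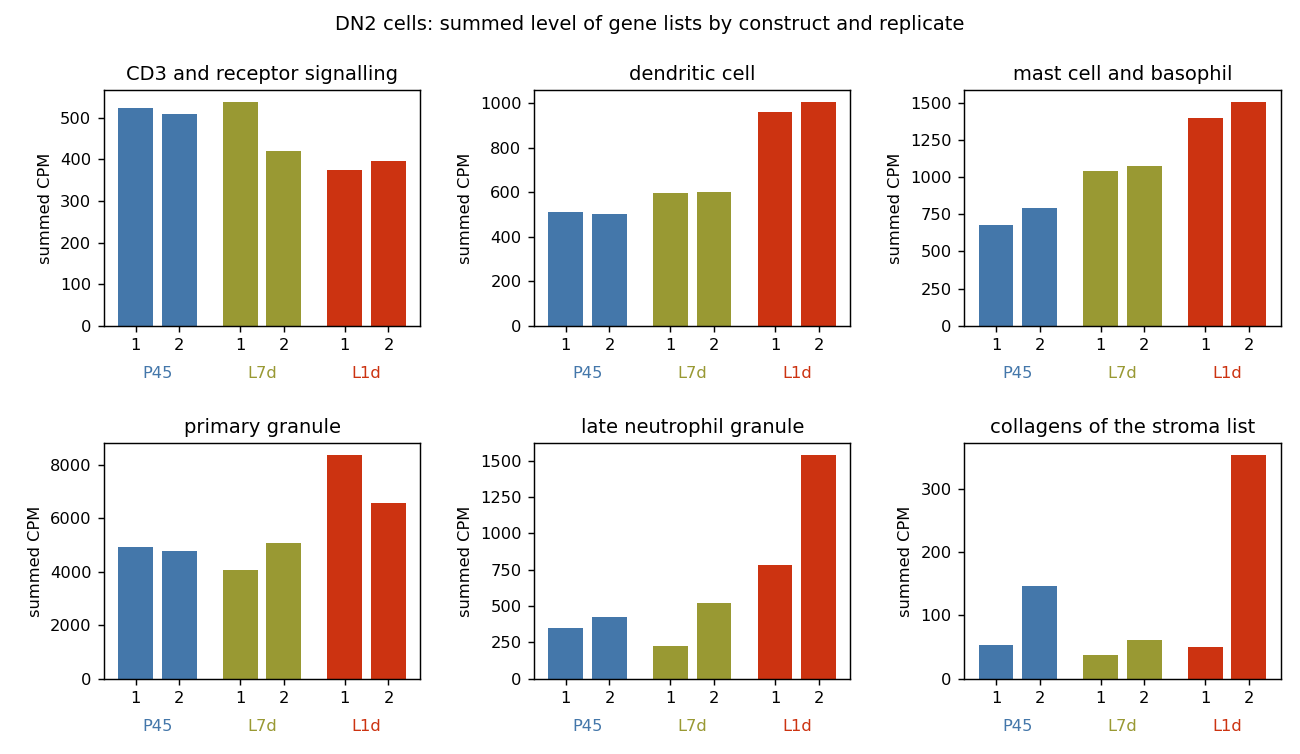
Summed CPM of 5 gene lists and of 9 collagens in each DN2 replicate, as bars from 0. The dendritic and mast cell sums step up from P45 over L7d to L1d with close replicates, while the late neutrophil sum (784 and 1543 CPM in L1d) and the collagens differ between L1d replicates.

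Megakaryocyte and progenitor genes rose in part. Pf4 (platelet factor 4) was at 10.6 and 18.5 CPM with P45 and 44.3 and 84.6 CPM with L1d, a 4.43-fold rise. Gp9, a platelet glycoprotein, rose 4.64-fold, while Itga2b was not called at 131 and 168 CPM against 209 and 308 CPM. Of 15 tested erythroid and megakaryocyte genes (22 listed) 6 rose and none fell, where 8.05% of all genes rose, and the median was 1.26. Hbb-bt, a globin, went the other way and was not called, at 16.9 and 17.4 CPM against 7.11 and 8.00 CPM. The calls in either direction numbered 9, 1, 1 and 4 without L1d replicate 1, L1d replicate 2, P45 replicate 1 and P45 replicate 2, and Car2, a carbonic anhydrase (2.2-fold), was the gene named here that was called in each. Of 25 tested stem and progenitor factors (26 listed) 9 rose and 1 fell, where 8.05% of all genes rose and 2.8% fell. The median of the list was 0.22. Lmo2, a progenitor cofactor, rose 1.86-fold from 74.0 and 79.0 CPM to 145 and 139 CPM (SE 0.11, adjusted p = 0.000183). Hlf and Mecom, stem cell factors, rose 3.09-fold and 4.27-fold but stayed under 4 CPM, Meis1 rose 1.62-fold, Tal1 1.44-fold and Mef2c 1.40-fold. Bex6 fell 1.39-fold, and Cd34 was not called at 271 and 249 CPM against 218 and 185 CPM. The progenitor calls in either direction numbered 11, 5, 3 and 3 without L1d replicate 1, L1d replicate 2, P45 replicate 1 and P45 replicate 2, with Lmo2 called in each.

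Innate lymphoid and cytotoxic genes moved both ways. Of 21 tested innate lymphoid genes (types 2 and 3) (30 listed) 5 rose and 7 fell, with a median of -0.24. Over all genes 8.05% rose and 2.8% fell. Those that fell include Bcl11b, Gata3 and Il2rb already given, with Il17rb, the IL-25 receptor (5.25-fold), Il18r1 (2.80-fold), Tnfsf11, which encodes RANKL (2.66-fold), and Pdcd1 (2.06-fold). Those that rose include Id2, Il1rl1, Nfil3 (1.38-fold) and Il23r, which went from 0.217 and 0.295 CPM to 1.04 and 2.21 CPM. Of 16 tested natural killer and cytotoxic genes (24 listed) 2 rose and 3 fell, against the same shares, with a median of -0.07. Ccl5, a chemokine, rose 3.82-fold from 11 and 14.5 CPM to 49.9 and 47.8 CPM (SE 0.22, adjusted p = 9.26e-05), and Gzmc fell 3.66-fold. Gzmb, the most studied granzyme, was not called at 750 and 871 CPM against 968 and 919 CPM. Without L1d replicate 1, L1d replicate 2, P45 replicate 1 or P45 replicate 2 the innate lymphoid list gave 10, 6, 5 and 9 calls and the cytotoxic list 7, 2, 2 and 3. Id2, Il1rl1, Il17rb and Ccl5 were called in each, and Nfil3 in none. Il18r1 lost the call without P45 replicate 1, and Pdcd1 lost it without L1d replicate 2 and without P45 replicate 1. Tnfsf11, Il23r and Gzmc lost it in these fits and in 1 more.

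DNA replication genes were slightly lower. Of 27 S phase genes 12 fell and none rose, where 2.8% of all genes fell, and the median was -0.28. Of 27 genes of G2 and M phase 1 fell (Bub1b, a spindle checkpoint kinase, 1.20-fold), with a median of -0.12. Mcm6, a helicase subunit, was at 681 and 668 CPM with P45 and 555 and 548 CPM with L1d (1.22-fold), and Ccne1 fell 1.37-fold and Uhrf1 1.24-fold. Mki67 was not called at 1166 and 1153 CPM against 1043 and 1158 CPM. These small differences rested on the replicates, since the S phase count was 15, 1, 0 and 7 without L1d replicate 1, L1d replicate 2, P45 replicate 1 and P45 replicate 2. The B lineage list gave 1 rise and 2 falls in 13 tested genes, where 8.05% of all genes rose and 2.8% fell.

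Called genes that averaged at least 1 CPM in a group, with no overlap of replicates, were ranked by the size of the change. The 15 that fell most were largely those already described. The others among the 15 were Cd163l1, a scavenger receptor of gamma-delta T cells (35.9-fold, from 6.26 and 5.52 CPM to 0.13 and 0.184 CPM), Ctla4 (11.7-fold), Tubb3 (10.1-fold), Ccr4 (9.60-fold) and Sstr2 (8.71-fold). Ccr4 and Sstr2 lost the call without P45 replicate 1. By the same ranking, the 15 genes that rose most were mostly low ones. Apart from Mcpt2 and Arc, a cytoskeletal immediate early gene (8.67-fold, from 1.22 and 1.39 CPM to 11 and 11.7 CPM), they stayed under 7 CPM with L1d: Npr1, Olfm4, Fblim1, Dscaml1, Alox8, Myh7, Ceacam15, Prph, Ttn, Ednrb, Hs3st1, Sspo and Lypd6. Of these 13, Ceacam15 (9.73-fold) was called in every fit with a replicate left out and the other 12 were not.

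Ranked by adjusted p, the rises were again dendritic in part and closely replicated. Besides Ccr7, Fscn1 and Ccl22 they were Mreg (5.87-fold, from 4.56 and 5.27 CPM to 27.7 and 30.1 CPM), Tbc1d8 (3.32-fold), Tbc1d4, a Rab regulator (3.37-fold), Bhlhe40, a transcription factor (2.5-fold), Stx11, a syntaxin (2.78-fold), Mmp25, a metalloproteinase (6.84-fold), and Tmem123 (2.04-fold). The falls were led by Vcan, the proteoglycan versican, at 290 and 286 CPM with P45 and 122 and 126 CPM with L1d (2.32-fold, adjusted p = 9.96e-06). Kbtbd11 fell 4.52-fold, Adgrg5, an adhesion receptor, 3.10-fold, Dnah8 2.90-fold, Trp53i11 2.81-fold, Cnn3 2.19-fold, Lmna, which encodes lamins A and C, 1.77-fold, and Fam169b 6.67-fold. All of these genes were called in every fit with a replicate left out.

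The same constructs were compared in DN1 cells, the stage before, to see whether the difference was there already. In DN1 183 genes were higher with L1d (1.22%) and 17 lower (0.113%), and without 1 of the 4 DN1 replicates the 200 calls (1.33%) went to between 5 and 50. The 97 genes called higher in both sorts were 8.02% of the DN2 rises and 53% of the DN1 rises. The change itself differed between the sorts for 237 genes (1.58%), of which 182 (1.21%) were shifted up and 55 (0.366%) down in DN2. That count fell to 59 to 112 without any DN1 replicate, without L1d DN2 replicate 2 or without either P45 DN2 replicate, and was 544 without L1d DN2 replicate 1.

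Dendritic genes were among those that differed between the sorts. Of the 15 tested dendritic genes 8 differed in their change between DN2 and DN1. Ccr7 averaged 6.61 CPM with P45 and 5.30 CPM with L1d in DN1, so its change was 2.54 log2 units larger in DN2 (SE 0.20, adjusted p of the difference = 2.67e-05). For Ccl22 and Cd83 the differences were 2.96 and 2.49, and the DN1 averages with P45 and L1d were 1.76 and 1.5 CPM for Ccl22 and 3.56 and 3.72 CPM for Cd83. Cst3 went the other way in DN1, from 262 to 202 CPM (adjusted p = 0.0142), and differed by 1.22. Of the class II genes H2-Aa, H2-Eb1 and Cd74 differed, by 1.88, 2.12 and 1.84. Notch1 differed by -1.08, with averages of 85.8 CPM (P45) and 102 CPM (L1d) in DN1. Cd24a differed by -1.47 and Satb1 by -1.04, where Cd24a was higher with L1d in DN1 (233 against 121 CPM, adjusted p = 0.00749). Fam20a differed by -5.11, with averages of 0.322 CPM (P45) and 1.21 CPM (L1d) in DN1, and 22 and 19.9 CPM with P45 against 3.52 and 1.72 CPM with L1d in DN2.

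Late neutrophil genes were higher with L1d in both sorts. In DN1 14 of the 22 rose, against 16 in DN2, and none was called for a difference in its change between the sorts. The changes were not equal in size: the list median was 1.02 in DN1 and 2.08 in DN2, with a median difference of 1.03. Ngp was at 2485 and 3067 CPM with P45 and 5681 and 6480 CPM with L1d in DN1, where it was not called (adjusted p = 0.324). Bcl11b was under 0.1 CPM in every DN1 replicate of both constructs and Lck between 1.26 and 3.24 CPM. No gene of the CD3 or receptor locus lists differed in its change by the test of the difference. The median differences of these lists were -0.40 and -1.32. Where a gene is near 0 reads in DN1 that test has little power, so it does not show that the changes were alike. Vcan was lower with L1d in DN1 too, at 541 and 571 CPM against 1102 and 987 CPM (adjusted p = 0.00137).

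**Figure D4:**
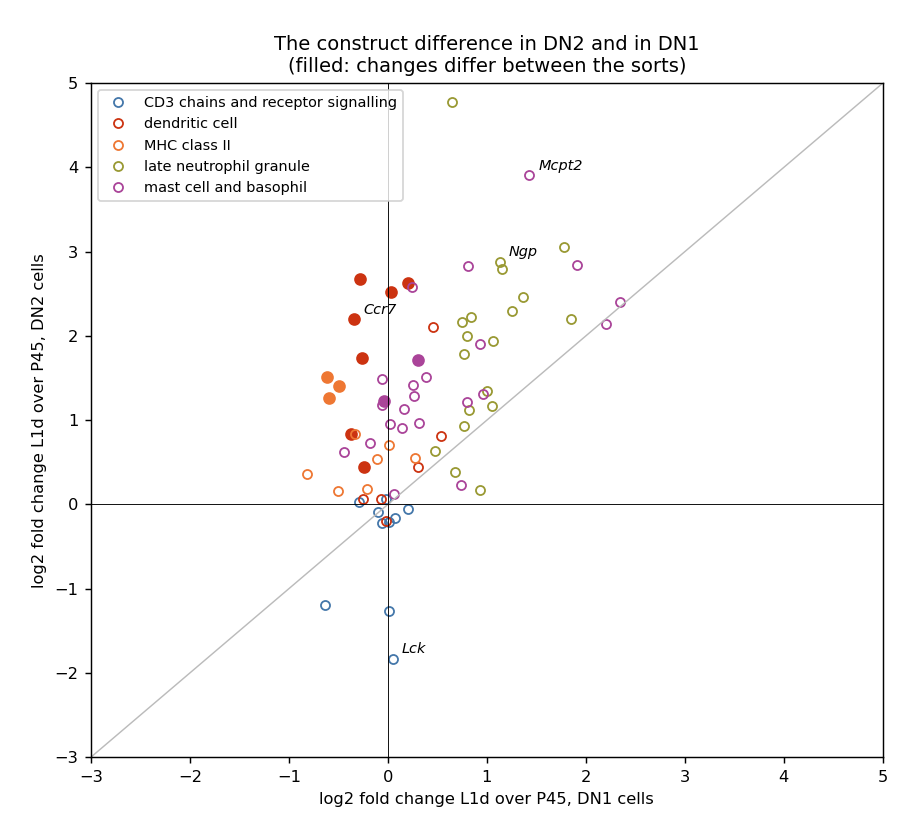
Log2 fold change of L1d over P45 in DN2 (vertical) against DN1 (horizontal) for members of 5 gene lists that averaged at least 1 CPM in a group of each sort; filled points have a change that differs between the sorts, and the grey line marks equal change. Ccr7 and other dendritic and class II genes lie high at or left of 0, and Ngp and other late neutrophil genes lie to the right of 0.

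L7d, the other deletion in DN2, lay between P45 and L1d for dendritic and mast cell genes. Ccr7 was at 36.3 and 32 CPM with L7d and Fscn1 at 63.9 and 59.5 CPM, both above the P45 and below the L1d replicates given above. This order, P45 below L7d below L1d without overlap, held for 10 of the 15 dendritic genes, for 17 of the 30 mast cell genes and for 4 of the 10 class II genes, against 4.09% of all genes. The reverse order held for 3.14% of all genes, and for 4 of the 18 CD3 and receptor signalling genes. Tested directly against L7d, 710 genes were higher with L1d (4.73%) and 163 lower (1.09%), a comparison that shares the L1d replicates with the one against P45. Tcf7 itself was among the 163 lower genes, as given above. The total of 873 (5.82%) was 184 without L7d replicate 1 and 336 without L1d replicate 2, and 36 with the spread of the 4 compared replicates alone. Of 15 dendritic genes 8 were higher than with L7d, with Ccr7 higher by 1.53 log2 units (adjusted p = 5.56e-06), Fscn1 by 1.58 and Ccl22 by 1.41. Of 30 mast cell genes 3 were higher than with L7d and Mcpt2 was not among them (17.6 and 18.9 CPM with L7d, adjusted p = 0.101).

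The L7d replicates were far apart in T lineage genes. Bcl11b was at 13.8 CPM in L7d replicate 1 and 2.44 CPM in replicate 2, Lck at 65.1 and 27 CPM, Thy1 at 25.6 and 7.33 CPM and Il2ra at 1178 and 687 CPM. Both L1d replicates lay below both L7d replicates for each of these 4 genes, and all 4 were lower with L1d than with L7d, Il2ra by 2.27-fold (adjusted p = 0.00347) and Thy1 by 11.1-fold (adjusted p = 0.00152). Of the 18 tested CD3 and receptor signalling genes 4 were lower than with L7d, and of the 12 receptor locus and recombination genes 4. With the spread taken from the L1d and L7d replicates in DN2 alone, no gene was called lower with L1d than with L7d. Notch1 was at 162 and 111 CPM with L7d, which overlapped the L1d replicates (104 and 112 CPM), and was not called between the deletions (adjusted p = 0.146). Late neutrophil genes were higher with L1d than with L7d in 14 of 22, with Ngp at 19.6 and 75.1 CPM in the L7d replicates.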

How the data were processed

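The deposited tables hold raw read counts per gene for each library, without strand, on the forward strand and on the reverse strand. Per the submitters' processing notes reads were handled with STAR 2.5.0a and HTSeq 0.6.1 on GRCm38, and per the labels' protocols libraries were made with a stranded total RNA kit (SMARTer, Pico input). The reverse-strand counts were used, since the forward strand held 4.88 to 6.272% of stranded reads. Of the reads, 56.06 to 65.48% were not assigned to a gene and were left out. They were unmapped, mapped to several places, in no gene or ambiguous between genes. Libraries of the same B replicate were summed, as these differed less (biological coefficient of variation 4.9%) than B replicates (9.2%). Counts of 44 primary libraries in 8 groups entered edgeR 4.0.16 in R 4.3.3 (TMM, filterByExpr, quasi-likelihood test, 8 residual degrees of freedom). The procedure was tested on simulated data. One table, of an L1d DN1 library, breaks off partway and was not used, and the 14 cell line samples were not analysed here. Named genes were the members the text describes, the 15 largest changes and the 10 lowest adjusted p in each direction. The ranked genes were called, had a mean of at least 1 CPM in the higher group and had replicates that did not overlap. Symbols of the Gm number, Rik and clone types were left out of the ranking. The members and gene lists were chosen with earlier results of these data known. DESeq2 1.42.0, other scalings, filters, strands and sample choices were tried as alternatives. Some genes are not reported here.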

Additional observations from a re-analysis of the deposited data

Results flagged for a closer look

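The change between L1d and P45 differed between DN2 and DN1 cells for 36 of the 200 genes looked at singly, against 237 of all 15010 tested (1.58%), by the test of that difference in edgeR. The 200 were partly chosen by their change in DN2 or after values were seen, so the 2 shares are not comparable. The values below are the log2 change in DN2 minus that in DN1, and both sorts have their own P45 and L1d replicates.

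Dendritic cell genes were shifted up in DN2: Ccr7 (2.54), Ccl22 (2.96), Fscn1 (2.43), Cd83 (2.49), Cd86 (2.00), Zbtb46 (2.90), Irf8 (0.68) and Cst3 (1.22). So were the class II genes H2-Aa (1.88), H2-Eb1 (2.12) and Cd74 (1.84), and the costimulators, NF-kappaB pathway genes and others Cd80 (1.68), Cd274 (1.12), Relb (1.55), Nfkb2 (0.83), Map3k14 (1.43), Traf1 (2.18), Cxcl16 (2.87) and Nr4a3 (2.74). Genes picked for the lowest adjusted p of a rise in DN2, a choice that favours an upward shift, are given as a description only: Mreg (2.55), Tbc1d8 (1.22), Bhlhe40 (1.06), Tmem123 (1.00), Stx11 (1.02), Tbc1d4 (1.67) and Mmp25 (1.66). Ccr7, Ccl22 and Fscn1, given above, had this rank as well. Il1rl1, a mast cell and lymphoid receptor, the progenitor cofactor Lmo2 and the adhesion gene Vcam1 were shifted up too, with values for Il1rl1 (1.42), Lmo2 (0.69) and Vcam1 (2.23).

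Genes shifted down in DN2 were Satb1 (-1.04), Cd24a (-1.47), Notch1 (-1.08), Il18r1 (-2.74) and Fam20a (-5.11). So were Lmna (-0.73) and Fam169b (-2.62), given as a description only. These were picked for the lowest adjusted p of a fall in DN2, a choice that favours a downward shift. Groups had 2 summed replicates, too few to look for single outlying samples.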

How the results depend on the processing

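The count of 1630 genes called between L1d and P45 in DN2 went to 3543 with each library as a replicate, 750 with only the compared groups, 641 with only the DN2 groups (an alternative added after the data were seen) and 527 to 1958 with 1 replicate left out. The DN1 count of 200 went to 474 without a filter, 1169 with each library as a replicate, 578 with only the compared groups and 5 to 50 with 1 replicate left out. The count of 237 for the difference between sorts went to 443 with DESeq2, 988 without a filter, 1721 with each library as a replicate and 59 to 544 with 1 replicate left out. The count of 873 against L7d went to 1543, 2357, 36, 153 and 184 to 1137 under no filter, each library as a replicate, only the compared groups, only the DN2 groups and left-out replicates. The cause of these shifts was not tested. In the counts that follow, a gene that an alternative did not test counts as keeping its call there. With DESeq2, for example, 152 of the 170 named called genes kept the call and 12 lost it. The others had no adjusted p in that alternative. Of 170 named called genes 79 kept the call in all 4 left-out fits, 73 in all 15 alternatives, and none reversed. With 1 replicate left out, Col1a1 in L1d against P45 in DN2 cells, which was not called, ranged from -1.32 to 1.67 on the log2 scale, Col1a2 in L1d against P45 in DN2 cells from -1.61 to 1.31 and Fn1 in L1d against P45 in DN2 cells from -1.64 to 1.4, lowest without L1d replicate 2; without P45 replicate 1 Col1a2 and Fn1 stood at -0.07 and -0.27. The labels do not say that replicate numbers pair the samples, and over 28 pairs of groups the deviations correlated at -0.033 to 0.255, with 11 over 0.1 and the highest between L1d DN2 and P45 DN2, the groups compared here. With the replicate block the counts were 2000 between L1d and P45 in DN2, 245 in DN1, 516 for the difference between sorts and 1148 against L7d. Depth limits genes near 0 reads, such as Cd3e.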
